A study of Rattus norvegicus with 9 samples.

Results

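The 3 libraries of rat cortical neurons given a hairpin against Pumilio2 (shPum2) were set directly against the 3 given a hairpin against Staufen2 (shStau2), so 6 of the 9 libraries of the study entered the difference. They were chosen by their titles. All 9 libraries came from cultured cortical neurons grown for 14 days in vitro and exposed to lentiviral particles for the last 4 of those days, and the 3 libraries of the control hairpin (shControl) serve here as a reference level. Cells cut a short hairpin RNA down to a small interfering RNA directed at 1 transcript, and the labels give the shPum2 and shStau2 groups as Pum2 depletion and Stau2 depletion. Every group was exposed to lentivirus with a hairpin, and there is no group without virus. Separate cultures or animals behind the replicates are not named in the labels, so a p-value reflects only the spread among these samples, part of which may be technical. The labels also do not give the number of hairpins per target or the share of cells transduced.

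Pumilio2 and Staufen2 are RNA-binding proteins found in the RNA granules of neurons. Pumilio proteins bind a short element in the 3′ untranslated region of their target mRNAs and mostly repress translation or promote decay. Staufen proteins bind double-stranded stretches of mRNA, and Staufen2 is known for the transport of mRNA into dendrites and for effects on mRNA stability. A direct comparison asks which transcripts had different levels when one or the other protein was targeted.

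The deposited files list Ensembl rat gene identifiers with no symbols, and the name table used here matched 0 of the 32883 identifiers. Gene names, the levels of Pum2 and Stau2, cell type markers and sequences are therefore not reported, and a gene is called a row below. The depletion of either protein and the neuronal identity of the cultures were thus not checked. Gene rows held 1.76% to 2.14% of the reads listed in a library, or 779386 to 979550 counts, and it is not known whether the counted strand was that of the mRNA or the opposite one. Of 32883 rows, 5697 had enough counts to be tested. CPM below means a row's counts per 1000000 counts of the tested rows, after TMM scaling, which adjusts for differences in composition between libraries. It is not divided by gene length, so levels are compared between libraries and not between genes.

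One library stood apart. Across the tested rows, shStau2 replicate 3 had a mean Spearman correlation of 0.729 with the other shStau2 libraries and of 0.794 with the shPum2 libraries. Each of the other 5 hairpin libraries correlated more with its own group (means of 0.808 to 0.848) than with the other hairpin (0.782 to 0.802). The numbers of called rows, the hairpin-specific classes and the rows named by identifier are given with and without shStau2 replicate 3. Other values include it unless stated.

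Between the hairpins 46 of 5697 rows differed (adjusted p below 0.05 by edgeR's quasi-likelihood test), which is 0.807% of the rows tested. Of these, 39 were higher in shPum2 (0.685% of rows) and 7 were higher in shStau2 (0.123%). The median log2 difference, shPum2 minus shStau2, was 1.69 among the 39 and -1.60 among the 7, against -0.05 over all rows tested. In size the smallest difference called was 1.19, and 14 of the 39 and 2 of the 7 differed by 2 or more log2 units. The median standard error of a called row was 0.33. The libraries of the hairpins did not overlap in any of the 46, which was also the case for 14.4% of all rows (820 rows). At an unadjusted p under 0.05 there were 643 of 5697 rows, 370 higher in shPum2 and 273 higher in shStau2. Without shStau2 replicate 3 there were 1342 of 6334 rows. Without shStau2 replicate 3 the 46 were all called again with the same sign, among 270 calls in 6334 rows tested (4.26%), of which 144 were higher in shPum2 and 126 in shStau2. The excess of rows higher in shPum2 thus depended on that library. With only the 6 hairpin libraries in the fit, 10 rows were called, 9 of them higher in shPum2.

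**Figure D1:**
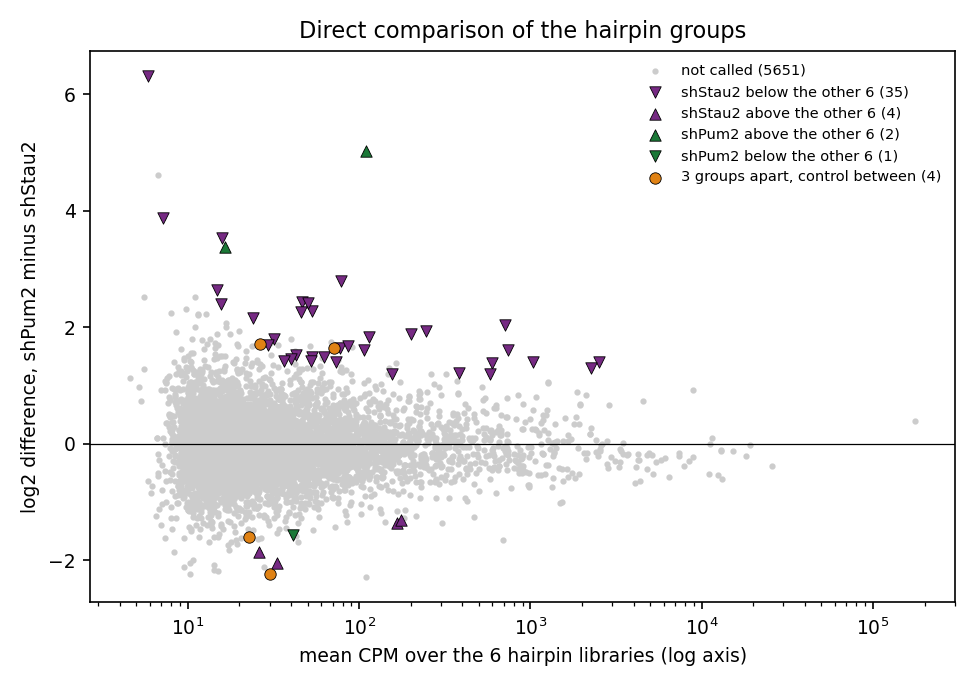
Each point is 1 of the 5697 tested gene rows, by its mean CPM over the 6 hairpin libraries (log axis) and its log2 difference, shPum2 minus shStau2. Triangles mark called rows in which 1 hairpin alone lay outside the other 6 libraries, and circles mark those with all 3 groups apart. The 46 called rows are spread over the range of levels, with 39 above and 7 below 0.

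Called rows reached from the low to the high end of the range of levels. Of 277 rows with a mean under 10 CPM over the hairpin libraries, 2 were called, both higher in shPum2. Of 4566 rows at 10 to 100 CPM, 23 were called higher in shPum2 and 5 higher in shStau2. Of 725 rows at 100 to 1000 CPM, 11 and 2 were called in the same order. Of 129 rows at 1000 CPM or more, 3 were called, all higher in shPum2. The share called was 0.722%, 0.613%, 1.79% and 2.33% from the lowest to the highest class, and the median standard error of the log2 difference was 0.60, 0.41, 0.29 and 0.28. The 2 classes from 100 CPM upward thus had the smaller errors and the larger shares of called rows.

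The control libraries show which hairpin group stood apart. They add nothing to the difference between the hairpins, although they helped to set the filter, the scaling and the spread. A row was counted as specific to a hairpin when the 3 libraries of that hairpin lay all above or all below the other 6. Rows in which both hairpins did so were left out of these classes and counted separately. In this way 42 of the 46 called rows were specific to 1 hairpin, 39 of them to shStau2 and 3 to shPum2. In the other 4 the control libraries lay between the hairpins without touching either. Among all 820 rows whose hairpin libraries did not overlap, shStau2 alone stood apart in 432, shPum2 alone in 84 and all 3 groups in 20. In the remaining 284 the controls overlapped a hairpin group or both. Without shStau2 replicate 3, shStau2 alone stood apart in 215 of the 270 called rows and shPum2 alone in 6. A group of 2 libraries lies outside the others more easily. In that setting shStau2 alone stood apart in 1309 of all rows tested and shPum2 alone in 185.

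**Figure D2:**
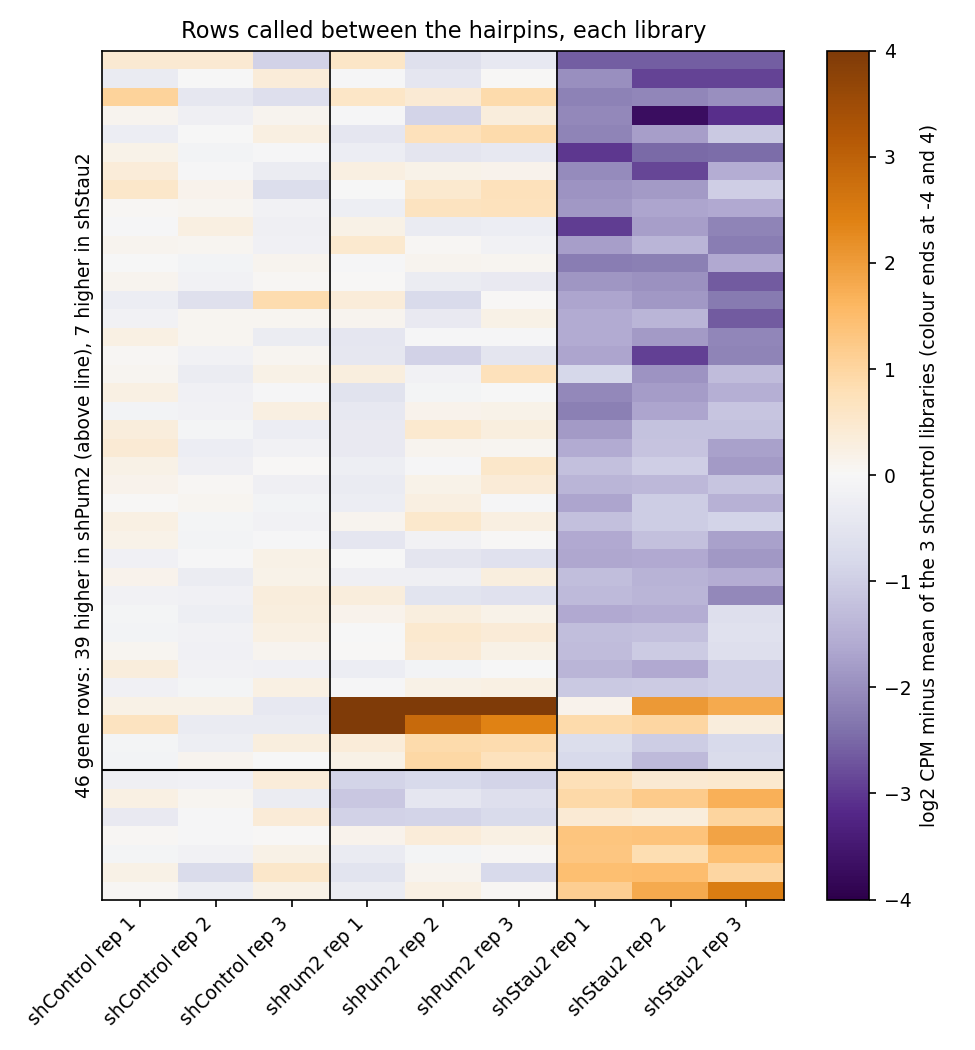
Each line is 1 of the 46 called rows and each column 1 library; the colour is log2 CPM minus the mean of the 3 shControl libraries, with colours ending at -4 and 4. The 35 lines at the top are low in all 3 shStau2 libraries and near the control level in shPum2. In 2 lines further down shPum2 alone stands apart, above the rest.

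The largest class held 35 rows in which shStau2 alone stood apart, lower than every other library. Without shStau2 replicate 3 it held 123 called rows, and the class with shStau2 alone above the rest went from 4 to 92. Over all rows tested these classes held 311 (5.46%) and 121 (2.12%) of 5697 rows. Without that library they held 709 and 600 of 6334. The imbalance between these classes was thus smaller without it, among called rows and over all rows tested. Among the 35 called rows the median log2 difference from shControl was -1.83 in shStau2 (range -6.53 to -0.99) and -0.01 in shPum2 (range -0.62 to 0.55). Over all rows tested the same medians were 0.04 and -0.01. Both differences use the same control libraries. Relative to the control mean, the median log2 level of the 35 rows was -1.66, -1.66 and -1.61 in shStau2 replicates 1, 2 and 3, and -0.04, -0.05 and 0.15 in shPum2 replicates 1, 2 and 3. The class was defined by low values in all 3 shStau2 libraries, so these medians describe the rows and are no check of replicate 3. For the 39 rows higher in shPum2, the shStau2 library furthest from shPum2 was replicate 1 in 19 rows, replicate 2 in 8 and replicate 3 in 12. Rows of the class ranged from a mean of 5.88 to 2522 CPM over the hairpin libraries, with a median of 62.7.

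The most abundant row of this class was ENSRNOG00000048733. It had 2662, 2728 and 4135 counts in shPum2 replicates 1 to 3 and 1439, 1168 and 912 in the shStau2 libraries. The control libraries held 3455, 2603 and 3126 counts. In CPM this was 3660 ± 753 in shPum2, 1385 ± 136 in shStau2 and 3746 ± 643 in shControl (SD, n = 3 each). All shStau2 libraries lay below every other library, and the shPum2 and shControl libraries overlapped. The log2 difference between the hairpins was 1.40 (SE 0.25, edgeR adjusted p = 0.017), and from shControl it was -0.03 in shPum2 and -1.44 in shStau2 (edgeR adjusted p = 0.999 and 0.011). Without shStau2 replicate 3 the difference between the hairpins was 1.36 (edgeR adjusted p = 0.0040). The call was lost without shPum2 replicate 3 (1.23, edgeR adjusted p = 0.13), without shStau2 replicate 1 or 2 (adjusted p = 0.055 and 0.12), with only the 6 hairpin libraries (adjusted p = 0.073) and against a minimum log2 difference of 0.5 (adjusted p = 0.079).

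Lower counts in shStau2 were also found in a row picked by its p, which favours a small error. The row with the next smallest p after ENSRNOG00000052063, described below, stood at 1136 ± 57.9 CPM in shPum2, 278 ± 73.2 CPM in shStau2 and 1104 ± 91.5 CPM in shControl (SD, n = 3 each). Its log2 difference between the hairpins was 2.03 (SE 0.26 against a median of 0.29 at 100 to 1000 CPM, edgeR adjusted p = 0.0016). At the low end, 1 row with 30 counts over the shPum2 libraries and 34 over the controls was at 0 throughout shStau2. The SE of its log2 difference was 1.28, against a median of 0.60 for rows under 10 CPM. It was called again in only 1 of the fits that left out 1 hairpin library. With the shStau2 sum set to 3 counts, the ratio of shPum2 to shStau2, scaled to the libraries, was 9.76. No counting interval was computed for this row, so the ratio is not a lower limit.

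Of the 7 rows higher in shStau2, shStau2 alone stood apart in 4, above all other libraries, against 92 of 126 without shStau2 replicate 3. Rows with all 3 groups apart are described further below. Over all rows tested this class, with shStau2 alone above the rest, held 121 of 5697 (2.12%), and 600 of 6334 without that library. The log2 difference of the 4 called rows, shPum2 minus shStau2, ran from -2.05 to -1.31. From shControl the median difference was 1.46 in shStau2 (range 1.23 to 2.07) and -0.05 in shPum2 (range -0.50 to 0.26). ENSRNOG00000014819 was the most abundant of them. It had 201, 189 and 227 counts in the shStau2 libraries, 76, 93 and 91 in shPum2 and 74, 70 and 63 in shControl. This was 249 ± 56.9 CPM in shStau2, 101 ± 8.54 CPM in shPum2 and 83.9 ± 2.95 CPM in shControl (SD, n = 3 each). Each shStau2 library was above each of the other 6, and replicate 3 was the highest at 315 CPM. The shPum2 libraries lay above the controls without overlap (log2 difference from shControl 0.26, edgeR adjusted p = 0.999). Between the hairpins the log2 difference was -1.31 (SE 0.27, edgeR adjusted p = 0.035), and it was -1.09 without shStau2 replicate 3 (adjusted p = 0.016). The call was lost without any 1 of the 3 shPum2 libraries (edgeR adjusted p = 0.10, 0.13 and 0.17), without shStau2 replicate 1 or 2 (0.068 and 0.12), without any 1 of the controls (0.063, 0.071 and 0.058), with only the 6 hairpin libraries (0.11) and against a minimum log2 difference of 0.5 (0.16).

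The rows specific to shPum2 were 3, of which 2 were higher there than in all other libraries and 1 was lower. ENSRNOG00000052063 had the smallest p of the comparison. It had 183, 171 and 199 counts in shPum2 replicates 1 to 3, against 1, 9 and 6 in the shStau2 libraries and 1, 1 and 0 in the controls. All shPum2 libraries were far above the rest, and the shStau2 and control libraries overlapped. The level was 214 ± 11.2 CPM in shPum2 and 6.61 ± 4.92 CPM in shStau2 (SD, n = 3 each). The ratio of the summed counts, scaled to the libraries, was 33.7, with an exact 95% counting interval of 20.6 to 59.4. The fitted log2 difference was 5.02 (SE 0.47, edgeR adjusted p = 4.11e-05), and the row was called in each of the 20 alternatives, with a log2 difference between 4.46 and 5.59. It was 5.24 without shStau2 replicate 3. From shControl the log2 difference was 7.81 in shPum2 and 2.78 in shStau2 (edgeR adjusted p = 3.53e-06 and 0.18).

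The other row in which shPum2 alone stood apart, above the rest, rested on few counts. It had 48, 16 and 12 counts in shPum2, 3, 3 and 1 in shStau2 and 2, 0 and 0 in shControl. Replicate 1 of shPum2 held most of them. Its summed counts gave a ratio of shPum2 to shStau2 of 10.6 (exact 95% counting interval 4.90 to 27.2). The log2 difference was 3.37 (SE 0.72, edgeR adjusted p = 0.040). Without shPum2 replicate 1 it was 2.48 and no longer called (edgeR adjusted p = 0.20), nor was it called without shPum2 replicate 2, shStau2 replicate 1, shStau2 replicate 2 or shControl replicate 3 (adjusted p = 0.073, 0.12, 0.13 and 0.052), with limma-voom without or with library weights (0.39 and 0.10), with only the 6 hairpin libraries (0.073) or against a minimum log2 difference of 0.5 (0.097). Without shStau2 replicate 3 it was 3.12 (adjusted p = 0.019). Neither hairpin passed the threshold against shControl in this row. The log2 differences there were 4.97 in shPum2 and 1.60 in shStau2 (edgeR adjusted p = 0.10 and 0.67).

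The row that was lower in shPum2 had 16, 17 and 20 counts there, 50, 43 and 59 in shStau2 and 26, 33 and 39 in shControl. In CPM its controls overlapped the shStau2 libraries and lay above every shPum2 library. The log2 difference was -1.58 (SE 0.34, edgeR adjusted p = 0.040) and -1.31 without shStau2 replicate 3 (adjusted p = 0.027). Its call was lost without any other single library (edgeR adjusted p from 0.058 to 0.17), with only the 6 hairpin libraries (0.11) and against a minimum log2 difference of 0.5 (0.16). Against shControl neither hairpin passed the threshold. The log2 differences there were -0.96 in shPum2 and 0.61 in shStau2 (edgeR adjusted p = 0.999 and 0.50). Both this row and the one before it were singled out after their values were seen, as the members of a class of 3.

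**Figure D3:**
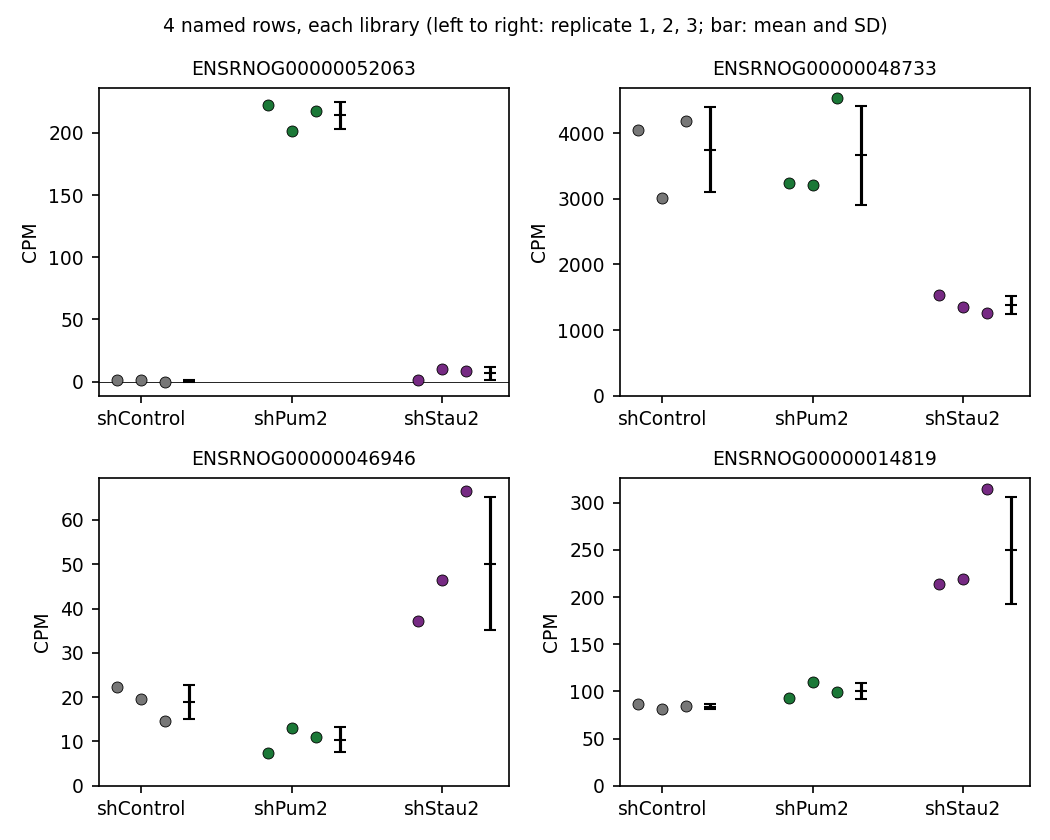
CPM of the 4 named rows in each library (points, replicates 1 to 3 from left to right) with the mean and SD of each group (n = 3). ENSRNOG00000052063 is high in shPum2 only and ENSRNOG00000048733 is low in shStau2 only. ENSRNOG00000014819 is highest in shStau2, with shPum2 just above the control, and in ENSRNOG00000046946 the control lies between the hairpins.

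In 4 called rows the hairpins lay on opposite sides of the control, 2 of them higher in shPum2 and 2 higher in shStau2. ENSRNOG00000046946 had the smallest p among rows higher in shStau2. It had 35, 40 and 48 counts in the shStau2 libraries, 19, 17 and 11 in the controls and 6, 11 and 10 in shPum2. The levels were 50.1 ± 15.0 CPM, 18.9 ± 3.83 CPM and 10.4 ± 2.86 CPM in that order (SD, n = 3 each), and no libraries of different groups overlapped. The log2 difference between the hairpins was -2.24 (SE 0.37, edgeR adjusted p = 0.010). Neither hairpin passed the threshold against shControl, where the log2 differences were 1.39 in shStau2 and -0.85 in shPum2 (edgeR adjusted p = 0.081 and 0.999). Without shStau2 replicate 3 the difference between the hairpins was -1.97 (edgeR adjusted p = 0.0064). The call was lost without shPum2 replicate 3 (-2.27, edgeR adjusted p = 0.067). The other 3 rows of this class had means of 22.7 to 71.5 CPM over the hairpin libraries, and none of them was among the rows called in every fit without 1 hairpin library.

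The place of the control was also measured on the log2 scale, as 0 where the control mean equals the shStau2 mean and 1 where it equals the shPum2 mean. Among the 39 rows higher in shPum2 the median place was 0.98 (range -0.30 to 1.37), and the control was nearer to shPum2 in 37 of them. Among the 7 rows higher in shStau2 the median was 0.77 (range 0.40 to 1.20), with the control nearer to shPum2 in 5. Over all rows tested the control was nearer to shPum2 in 61.2%. Values below 0 belong to the 2 rows in which shPum2 alone was high, where the control mean lay even lower than the shStau2 mean.

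**Figure D4:**
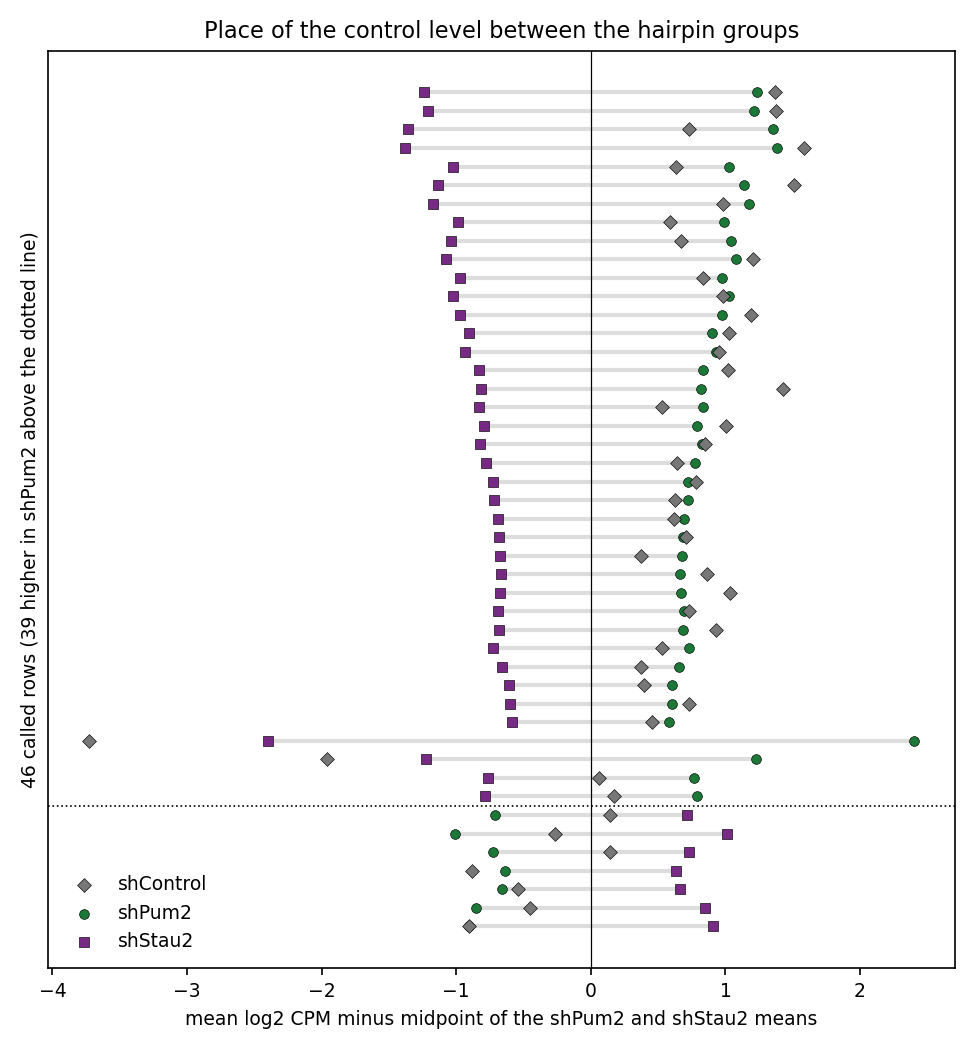
For each of the 46 called rows, the group means of log2 CPM are drawn relative to the midpoint of the shPum2 and shStau2 means, so the hairpin groups lie at equal distances from 0. The control diamonds lie near the shPum2 circles in most of the 39 rows above the dotted line. They lie beyond the shStau2 squares in the 2 rows in which shPum2 alone was high.

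The calls varied with single libraries. With 1 hairpin library left out, the number of the 46 called again was 27, 15 and 10 without shPum2 replicate 1, 2 or 3, and 10, 11 and 46 without shStau2 replicate 1, 2 or 3. Without 1 of the controls it was 23, 23 and 22. In all 6 fits that left out a hairpin library, 7 rows were called, each of them higher in shPum2. They are ENSRNOG00000052063 and 6 rows of the class that was low in shStau2. These 6 had log2 differences between 1.94 and 2.79, with means of 14.5 to 278 CPM in shStau2, 78.2 to 1136 CPM in shPum2 and 64.2 to 1104 CPM in shControl.

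**Figure D5:**
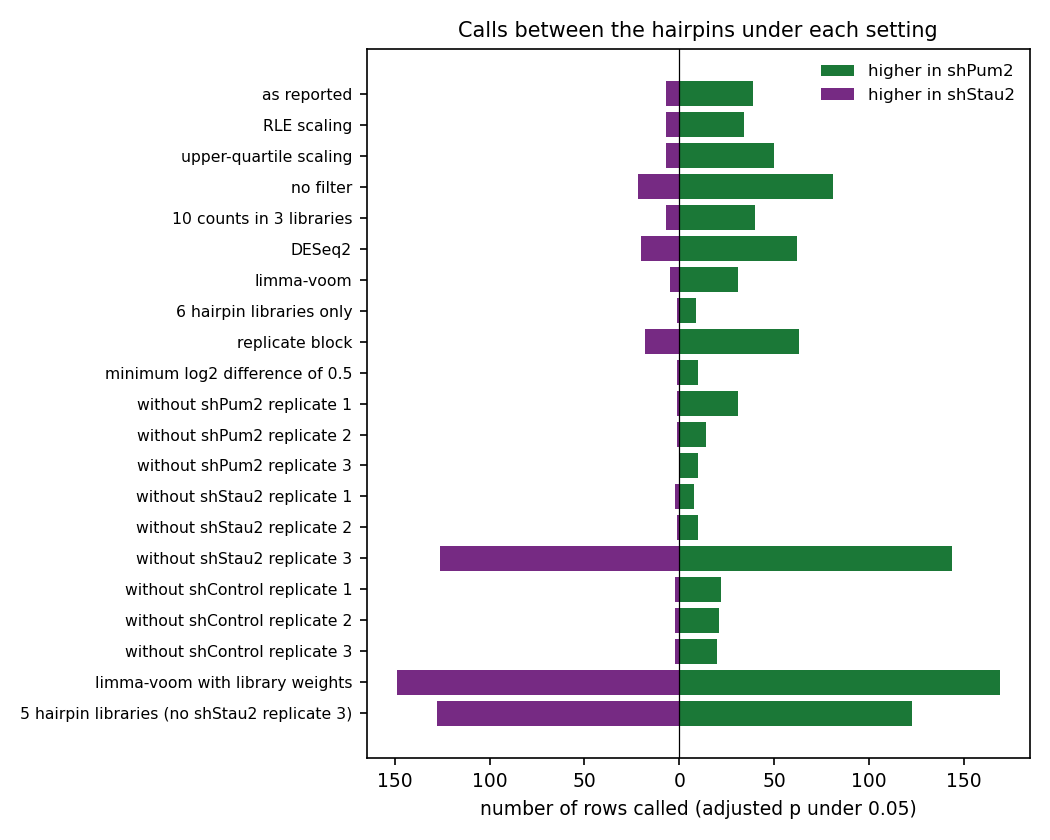
Number of rows called between the hairpins under each setting, those higher in shPum2 to the right of 0 and those higher in shStau2 to the left. Settings that leave out shStau2 replicate 3 or use library weights give 251 to 318 calls with near equal sides. The other settings give 10 to 103 calls with most of them higher in shPum2.

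The threshold fell among rows of like size. The last rows inside it had log2 differences of 1.69, 1.42 and -1.86 (edgeR adjusted p = 0.044, 0.046 and 0.046), and the first rows outside it 1.34, 1.04 and 1.07 (0.0502, 0.0507 and 0.0507).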

How the data were processed

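Poly(A) RNA of 9 samples was made into directional libraries, per the labels' protocols. Each deposited file holds the unnormalized counts of 1 library. The submitters' processing notes name STAR 2.6.1a and bcl2fastq 2.19.1.403. For the genome build, annotation, counting tool and strand setting: not given in the sources used here. The 4 rows that name no gene stayed out of library sizes and tests. No-feature reads alone made up 86.0% to 88.1% of the reads listed. Within the hairpin groups, replicates differed by a chi-square per degree of freedom of 6.12 to 15.1, so none was a repeat sequencing run of another. This check cannot tell separate cultures from separate preparations of the same culture.

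Counts were fitted with edgeR 4.0.16 (R 4.3.3) over all 9 libraries, with 1 coefficient per group, filterByExpr and TMM factors. Tests were two-sided quasi-likelihood tests, adjusted by Benjamini-Hochberg over 5697 rows, and the standard error came from the F statistic. The tested rows held 96.0% to 97.7% of a library's gene counts. Log2 CPM used a prior count of 2. The fit was tested on simulated data with changes in shPum2 only and no outlying library, so that test does not cover the effect of shStau2 replicate 3. Rows named by identifier are, in each direction, the called row with the smallest p and the most abundant one, among those with no overlap and a mean of at least 20 CPM. With no symbols no more were named. The comparison and this rule were chosen with earlier results of these data known, and the gene lists set aside for symbols could not be used. Alternatives were RLE and upper-quartile factors, other filters, DESeq2 1.42.0, limma-voom (limma 3.58.1), the 6 hairpin libraries alone, a replicate block, a minimum log2 difference of 0.5, each library left out, and 2 chosen after seeing the data (limma-voom with library weights, and 5 hairpin libraries).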

Additional observations from a re-analysis of the deposited data

How the results depend on the processing

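As reported, 39 rows were higher in shPum2, 7 were higher in shStau2 and 42 of these were specific to 1 hairpin. These counts became 81, 22 and 78 with no filter on low counts, 62, 20 and 70 with DESeq2 (885 rows, 3 of the 46 among them, had no adjusted p), and 10, 1 and 10 with a minimum log2 difference of 0.5. With only the 6 hairpin libraries, 9 and 1 rows were called. Limma-voom with library weights, chosen after seeing the data, gave 169, 149 and 135. Also chosen after seeing the data, 5 hairpin libraries without shStau2 replicate 3 gave 123 and 128. Leaving out 1 library at a time gave 8 to 144 rows higher in shPum2, 0 to 126 higher in shStau2 and 9 to 221 specific to 1 hairpin. More rows pass the filter when a group has 2 libraries. RLE and upper-quartile scaling, the filter of 10 counts in 3 libraries and limma-voom stayed within 1.5 times the reported counts. With the replicate number as a block, the counts were 63, 18 and 70, and all 46 rows were called again. The main fit did not pair libraries by number, and whether the numbers mark a pairing is not settled. The deviations of same-numbered shPum2 and shStau2 libraries correlated at 0.53, -0.08 and 0.48. For shPum2 replicates 1 and 3 the same-numbered shStau2 library was the best match, whereas shPum2 replicate 2 correlated best with shStau2 replicate 3 (0.26). No scaling moved the median log2 difference of all rows by over 0.1 (RLE -0.06, upper quartile -0.01). The highest adjusted p of the named rows over the alternatives was 0.0011 for ENSRNOG00000052063, 0.067 for ENSRNOG00000046946, 0.13 for ENSRNOG00000048733 and 0.17 for ENSRNOG00000014819. In the main fit, at 779386 to 979550 gene counts per library, differences under 1.19 log2 units were not called. Without shStau2 replicate 3, ENSRNOG00000014819 was called at -1.09.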

Other observations

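Rows that were present with one hairpin and at 0 with the other were rare. Over all 32883 rows, 2 had 3 or more counts in each shPum2 library and 0 in every shStau2 library, with 10 and 30 counts over the shPum2 libraries, and both also had counts in the controls. No row had 3 or more counts in each shStau2 library and 0 in every shPum2 library.

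The uncalled rows whose hairpin libraries did not overlap were also described. Of 462 such rows higher in shPum2, the control mean was nearer to shPum2 in 379 (82.0%), and of 312 higher in shStau2 it was nearer to shPum2 in 229 (73.4%), against 61.2% over all rows tested. Relative to the control mean, the interquartile range of log2 levels over all rows tested was 1.28 in shStau2 replicate 3, against 0.75 and 0.77 in shStau2 replicates 1 and 2 and 0.56, 0.71 and 0.76 in shPum2 replicates 1, 2 and 3. The part of this spread in the place of the control was not tested.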
